A study of Mus musculus with 4 samples.

Results

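The lipid-associated macrophage genes are 10 genes, Apoe, Trem2, Lpl, Fabp4, Fabp5, Cd36, Gpnmb, Plin2, Abca1 and Lgals3, of the 32285 genes counted in immune cells of mouse mammary tumors. They were chosen by name, and both they and the gate markers with earlier results of these data known. Levels of the 10 genes were read in cell classes gated by marker genes, none of which is among the 10 genes. Macrophages that take up dying cells, lipoproteins and cell debris have to store, break down or export the lipid that comes with them. Lipoprotein lipase frees fatty acids at the cell surface, scavenger receptors such as CD36 bring lipid in, fatty acid binding proteins carry it, perilipins coat the droplets in which it is stored, and ABCA1 hands cholesterol to apolipoproteins, APOE among them. TREM2 is a surface receptor for lipids and apolipoproteins whose signal is known to maintain this state in adipose tissue, atherosclerotic plaques and tumors.

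The cells came from tumors of EO771, a mammary carcinoma line of C57BL/6 mice, grown in the mammary fat pad of 2 Lyve1CreCsf1rfl/fl and 2 Csf1rfl/fl female mice to a volume of 1.5 cm3. All 4 mice carried the floxed Csf1r alleles, and Lyve1CreCsf1rfl/fl mice also carried Cre under the Lyve1 gene, which deletes Csf1r, the receptor for the macrophage growth factor CSF1, in any cell that has expressed Lyve1, lymphatic endothelium included. Cells were tagged with hashtag antibodies, and viable CD45+ cells were then sorted. They were sequenced as 3′ unique molecular identifiers (UMIs) in 2 Chromium runs, each with 1 tumor of each genotype. With n = 2 tumors per genotype, the smallest two-sided p that an exact permutation test allows is 0.33, so that genotypes were compared only through models fitted across all genes.

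Of 53361 barcodes, the 28429 that the authors kept were used, 4771 to 8699 per tumor, with medians of 3721 to 4657 UMIs per cell and totals of 27686362 to 56715743 UMIs per tumor. Between the kept cells of the runs, 60 barcode sequences were shared (0.378% and 0.478% of the cells of runs 1 and 2). Marker gates placed 22781 cells (80.1%) in 12 classes and left 5648 ungated. The gates select on their own markers, so that the leading genes describe the classes and do not test them. In 11 classes, 3 to 7 of the gate's own markers were among the 10 genes that stood out most by fold, and no marker of another class was. The class of tumor and stromal cells, which a CD45 sort should exclude, had Sparc alone of its markers among them and a Ptprc (CD45) level of 0.205 UMIs per 10000, against 7.61 in macrophages gated by C1q genes. Lyve1 itself had 3 UMIs in 1896 C1q macrophages and 4 in 914 Arg1 macrophages, against 134 in the tumor and stromal class, so that Lyve1 RNA was near 0 in the gated macrophages. B cells, a class of 394 cells, 285 of them from 1 Lyve1CreCsf1rfl/fl tumor, held 106 to 395 UMIs per 10000 of neutrophil markers, and their values are given only where they rank high.

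Levels are UMIs of a gene per 10000 UMIs of all genes in a class, summed over the cells of each tumor. The macrophages fell into a C1q class (C1qa, C1qb, C1qc, Mrc1, Adgre1 and others, 1896 cells) and an Arg1 class (Arg1, Mmp12, Spp1, Hmox1, Vegfa and Slc2a1, 914 cells), beside 3086 Ly6c2 monocytes. Arg1 macrophages are named for their gate, and whether all of them are macrophages was not tested. The 10 genes divided between the macrophage classes. Apoe had its highest mean in C1q macrophages, while Fabp4, Cd36, Gpnmb, Plin2, Abca1 and Lgals3 had theirs in Arg1 macrophages and Fabp5 in mature dendritic cells, and Trem2 and Lpl had overlapping levels in both macrophage classes. The class with the highest mean was the same for all 10 genes under a stricter gate and when each cell was given equal weight.

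Of the genes higher in Arg1 than in C1q macrophages, the promoters of 3 are shown, those that hold a match to the E-box or the AP-1 motif. RefSeq promoters (GRCm38.p6) were found for 7 of the 10 genes, and Fabp4, Fabp5 and Lpl had no entry. Each line runs 5′ to 3′ on the gene's strand, from 250 bases before the transcription start to the first 20 transcribed bases, and capitals mark the motif CACGTG (the E-box) in Abca1 and Plin2 and TGAGTCA (the AP-1 motif, read here on the opposite strand) in Gpnmb.

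Abca1 (chr4:53159876-53160145, minus strand): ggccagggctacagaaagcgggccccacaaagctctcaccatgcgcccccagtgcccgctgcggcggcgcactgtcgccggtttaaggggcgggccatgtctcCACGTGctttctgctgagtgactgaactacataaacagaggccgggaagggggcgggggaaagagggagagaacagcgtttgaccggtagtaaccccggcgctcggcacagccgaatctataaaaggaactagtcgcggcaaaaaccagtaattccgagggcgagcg

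Plin2 (chr4:86670040-86670309, minus strand): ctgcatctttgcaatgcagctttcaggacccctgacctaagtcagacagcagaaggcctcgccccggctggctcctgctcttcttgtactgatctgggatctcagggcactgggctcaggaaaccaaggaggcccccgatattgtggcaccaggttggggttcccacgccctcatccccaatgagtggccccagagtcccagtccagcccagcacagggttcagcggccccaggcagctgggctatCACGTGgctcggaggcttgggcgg

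Gpnmb (chr6:49036268-49036537, plus strand): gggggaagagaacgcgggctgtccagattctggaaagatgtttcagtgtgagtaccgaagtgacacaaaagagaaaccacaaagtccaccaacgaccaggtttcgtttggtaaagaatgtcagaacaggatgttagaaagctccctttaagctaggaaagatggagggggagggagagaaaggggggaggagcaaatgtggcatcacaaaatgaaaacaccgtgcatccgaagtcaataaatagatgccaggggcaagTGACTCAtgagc

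The E-box began 147 bases before the RefSeq start in Abca1 and 4 bases before it in Plin2, and the AP-1 motif began 8 bases after it in Gpnmb. In GENCODE M21, the source of the gene positions below, Gpnmb begins at base 49036546, after the last base printed here. Searched on both strands over all 300 bases, CACGTG was present in 7.15% of the 32851 mouse promoters and TGAGTCA in 5.20%. The nuclear receptor half-site AGGTCA was present in Cd36, Plin2 and Trem2 (16.3% of all promoters) and the TATA motif TATAAA in Abca1 and Apoe (13.6%). The marked matches overlap no match of the other motifs, and a match is a description of letters, not of binding.

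Apoe (chr7:19696109-19699188, minus strand, GRCm38 with GENCODE M21 as for all genes that follow) encodes the apolipoprotein that carries cholesterol out of macrophages. In C1q macrophages its level was 6.12 and 5.93 in the Csf1rfl/fl tumors and 4.16 and 4.13 in the Lyve1CreCsf1rfl/fl tumors, a mean of 5.08 ± 1.09 (SD, n = 4). The lowest of these lay above the highest tumor of any other class, 3.08 in the B cells of 1 Csf1rfl/fl tumor, where 1 cell held 84 of 154 UMIs. That lowest value rests in part on 1 cell too, with 124 of 370 UMIs. Without the highest cell of each tumor, C1q macrophages were at 5.88 and 5.50 in the Csf1rfl/fl tumors and 3.50 and 2.77 in the Lyve1CreCsf1rfl/fl tumors. In Arg1 macrophages Apoe was at 1.76, 1.23, 1.31 and 0.498 and in monocytes at 1.11, 0.738, 1.48 and 0.828, in the order Csf1rfl/fl run 1, Csf1rfl/fl run 2, Lyve1CreCsf1rfl/fl run 1 and Lyve1CreCsf1rfl/fl run 2, which is the order of every list of 4 values that follows. These ranges overlapped. C1q macrophages, 1896 of 28429 cells, held 54.7% of all Apoe UMIs.

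Trem2 (chr17:48346401-48354147, plus strand) was sparse, with 1596 UMIs in all kept cells. Its level was 0.411, 0.560, 0.387 and 0.156 in C1q macrophages, 0.489, 0.373, 0.214 and 0.136 in Arg1 macrophages and 0.251, 0.212, 0.348 and 0.189 in monocytes. The 3 ranges overlapped. Those of C1q macrophages and monocytes lay above all tumors of the other 9 classes, and the lowest Arg1 macrophage value lay just under the highest B cell value (0.140, mean of B cells 0.0530 ± 0.0672). With cells weighted equally, the mean of Arg1 macrophages was 0.175 in place of 0.303.

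**Figure D1:**
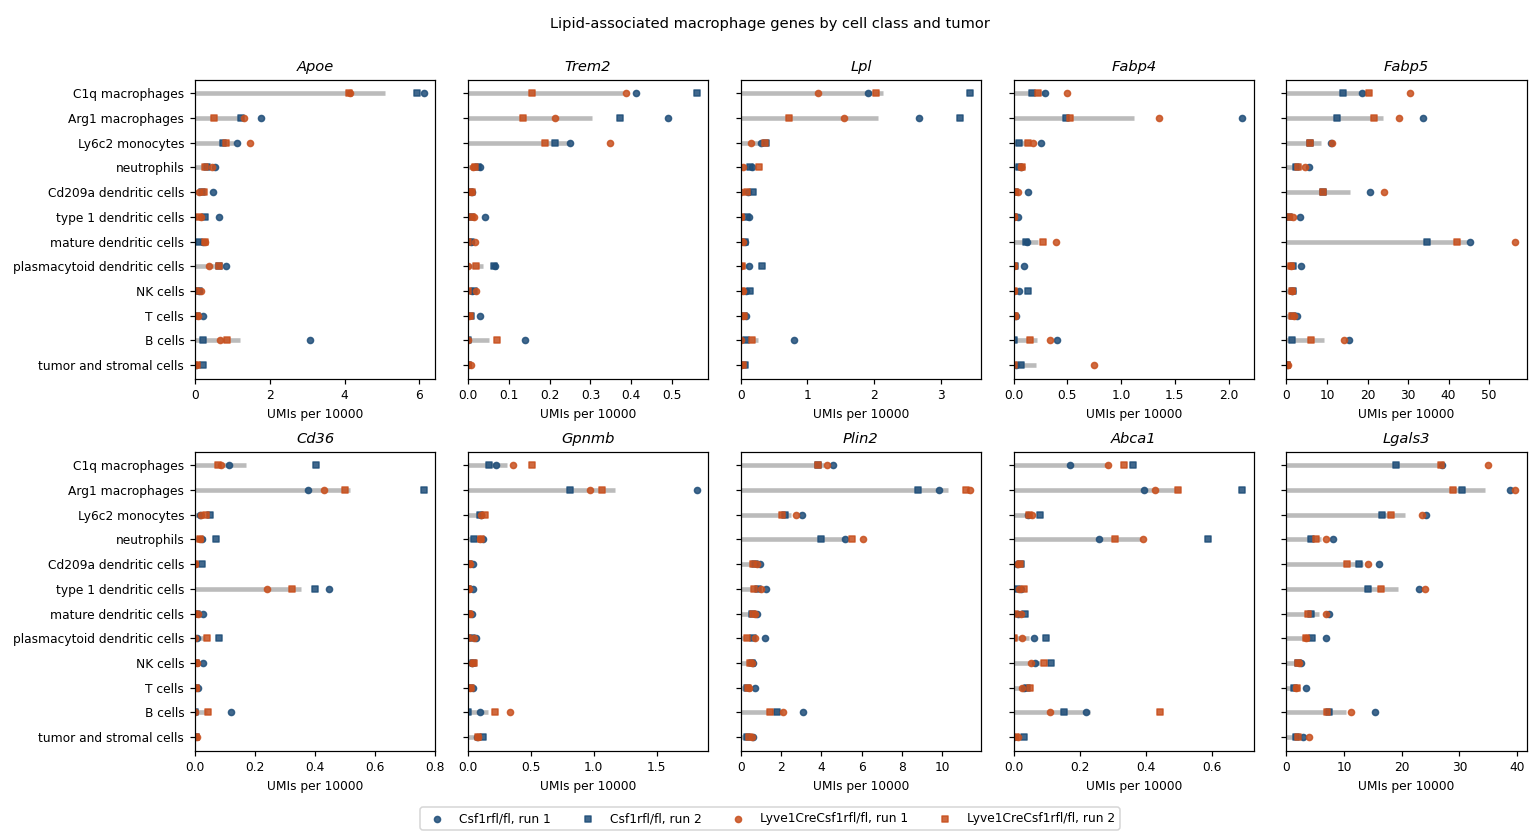
Level of each of the 10 genes (x axes, UMIs per 10000 UMIs of the class, linear, a different scale in each panel) in 12 cell classes (rows). Points are the 4 tumors, with color for genotype and shape for run, and gray bars reach from 0 to their mean. Apoe peaks in C1q macrophages (mean 5.08), Plin2, Gpnmb and Fabp4 in Arg1 macrophages (means 10.3, 1.17 and 1.12) and Fabp5 in mature dendritic cells (mean 44.7).

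Lpl (chr8:68880491-68907448, plus strand) encodes lipoprotein lipase. Its level was 1.91, 3.43, 1.15 and 2.02 in C1q macrophages and 2.67, 3.28, 1.55 and 0.725 in Arg1 macrophages, with overlapping ranges and means of 2.13 ± 0.948 and 2.06 ± 1.14 (SD, n = 4). With cells weighted equally, the means were 1.84 in C1q and 0.982 in Arg1 macrophages. Monocytes stood below every macrophage value, at 0.310, 0.385, 0.159 and 0.365. The Lpl UMIs of Arg1 macrophages were held by few cells: 107 of 914 had any, and the 10 highest held 64.8%, against 681 of 1896 cells and 13.7% in C1q macrophages.

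Cd36 (chr5:17781690-17888801, minus strand), the scavenger receptor for oxidized lipoproteins and long-chain fatty acids, was at 0.378, 0.763, 0.429 and 0.498 in Arg1 macrophages. Conventional type 1 dendritic cells, gated by Xcr1, Clec9a and other genes, came next at 0.447, 0.398, 0.241 and 0.324 and overlapped with them. C1q macrophages were at 0.112, 0.404, 0.0861 and 0.0781, so that their mean of 0.170 rests largely on the Csf1rfl/fl tumor of run 2. Monocytes had 56 UMIs in all, at 0.0180 to 0.0504.

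Fabp4 (chr3:10204088-10208576, minus strand) and Fabp5 (chr3:10012548-10016607, plus strand) encode fatty acid binding proteins of adipocytes and macrophages and of epithelium and macrophages, and lie 187 kb apart. Fabp4 was highest in Arg1 macrophages, at 2.13, 0.488, 1.35 and 0.521, with both run 1 tumors above both run 2 tumors. Its UMIs came from few cells, since 62 of 914 Arg1 macrophages had any and the 10 highest held 55.0%. Of all 3561 Fabp4 UMIs, 47.0% lay in ungated cells and 766 in 1 ungated cell with UMIs of all 7 endothelial check markers, including Pecam1, Cdh5 and Kdr, of 2 of 7 adipocyte markers (Cidec and Cfd) and of no Ptprc. A second cell, in the tumor and stromal class, had 193 Fabp4 UMIs and 6 of those markers. Adipocyte markers were near 0 in both macrophage classes, with a summed level of at most 0.25 in C1q and 0.231 in Arg1 macrophages and Plin1, Cidec, Lep and Cfd at 0.

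Fabp5 followed another order. Mature dendritic cells, gated by Ccr7, Fscn1 and other genes of migrating dendritic cells, stood at 45.2, 34.7, 56.5 and 42.2 and above every tumor of the next class. Arg1 macrophages were at 33.6, 12.4, 27.7 and 21.5, C1q macrophages at 18.5, 14, 30.6 and 20.4, Cd209a dendritic cells at 20.7, 9.14, 24.1 and 9.04, and monocytes at 11.0, 5.81, 11.3 and 5.89. Within each genotype the run 1 tumor was the higher one in all of these classes. Mature dendritic cells held 31.1% of all Fabp5 UMIs.

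Plin2 (chr4:86648386-86670060, minus strand), which coats lipid droplets, separated the classes with the least spread between tumors. Arg1 macrophages were at 9.84, 8.81, 11.4 and 11.2 (mean 10.3 ± 1.20), neutrophils at 5.19, 3.97, 6.08 and 5.51, C1q macrophages at 4.58, 3.82, 4.27 and 3.82 and monocytes at 3.06, 2.20, 2.75 and 2.04. Arg1 macrophages did not overlap with neutrophils, nor C1q macrophages with monocytes, whereas neutrophils and C1q macrophages overlapped. Each dendritic, NK and T cell class had a mean below 1 UMI per 10000.

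Abca1 (chr4:53030787-53159895, minus strand), the cholesterol exporter, had the same leading classes at lower counts. It was at 0.395, 0.692, 0.429 and 0.498 in Arg1 macrophages, at 0.260, 0.589, 0.390 and 0.308 in neutrophils and at 0.170, 0.361, 0.284 and 0.335 in C1q macrophages, and neighbours in this order overlapped. Monocytes were below all of these at 0.0451 to 0.0810. Neutrophils, the class with most cells among these, held 27.5% of all Abca1 UMIs.

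Gpnmb (chr6:49036546-49070929, plus strand), a glycoprotein of lysosomes and melanosomes, was at 1.82, 0.816, 0.971 and 1.06 in Arg1 macrophages and at 0.221, 0.165, 0.362 and 0.513 in C1q macrophages, without overlap. It was at 0.0972 to 0.134 in monocytes. Lgals3 (chr14:47367751-47386160, plus strand), the galectin that binds damaged lysosomes and cell surface glycans, was high in several classes, at 38.7, 30.5, 39.7 and 29.0 in Arg1 macrophages, 26.9, 19.0, 35.0 and 26.8 in C1q macrophages, 24.3, 16.5, 23.4 and 18.1 in monocytes and 23.0, 14.2, 24.1 and 16.4 in conventional type 1 dendritic cells. All neighbours in that order overlapped.

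To ask how the genes change from monocytes to macrophages, classes were compared within the 4 tumors by edgeR's quasi-likelihood test with a term for the tumor, adjusted over all genes tested. All 10 genes were higher in C1q macrophages than in monocytes, where 19.4% of the 9744 genes tested were higher and 20.3% lower. Lpl was higher by a log2 difference of 2.69 (SE 0.108, adjusted p = 1.04e-10), Cd36 by 2.42 (SE 0.256), Apoe by 2.23 (SE 0.160, adjusted p = 4.88e-08) and Abca1 by 2.12 (SE 0.185), each in 4 of 4 tumors. The smallest differences were those of Lgals3 (0.27, SE 0.0883), Plin2 (0.61, SE 0.0773), Trem2 (0.61, SE 0.174, higher in 3 of 4 tumors) and Fabp4 (0.76, SE 0.211). In the fit without the tumor term, Trem2, Fabp4 and Lgals3 did not pass (adjusted p = 0.143, 0.204 and 0.377). By DESeq2 and under the stricter gate Trem2 and Lgals3 did not pass either, and without 1 tumor the calls of Trem2 (either Csf1rfl/fl tumor), Fabp4 (Lyve1CreCsf1rfl/fl run 1) and Lgals3 (either Lyve1CreCsf1rfl/fl tumor) were lost. In that Lyve1CreCsf1rfl/fl tumor of run 1, 1 C1q macrophage held 43 of the 58 Fabp4 UMIs.

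Arg1 macrophages were higher than monocytes for 8 of the 10 genes, where 21.6% of the 8741 genes tested were higher and 18% lower. Cd36 differed by 4.23 on the log2 scale (SE 0.213, adjusted p = 1.11e-09), Gpnmb by 3.59 (SE 0.182), Abca1 by 3.30 (SE 0.196), Fabp4 by 3.04 (SE 0.173), Lpl by 2.93 (SE 0.239), Plin2 by 2.22 (SE 0.141), Fabp5 by 1.65 (SE 0.132) and Lgals3 by 0.94 (SE 0.0957), each in 4 of 4 tumors and without overlap of the classes, as 13.4% of all genes were. Apoe (0.42, SE 0.175, adjusted p = 0.0721) and Trem2 (0.54, SE 0.242, adjusted p = 0.0943) were higher in 2 of 4 tumors. Both passed without the Lyve1CreCsf1rfl/fl tumor of run 2, Trem2 without that of run 1 and Apoe under the stricter gate.

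Arg1 macrophages also carried neutrophil RNA. Their gate holds neither Csf1r nor Cd68. Csf1r had a UMI in 27.1% of them, against 58.8% of C1q macrophages and 11.3% of neutrophils, and S100a8 in 78.4%, 58.4% and 99.5%. Per 10000 UMIs, Csf1r was at 1.29, 1.59 and 0.571 in these classes. Their median depths were 2443, 5803 and 2149 UMIs per cell. Whether part of the Arg1 class is neutrophils was not tested. Their 8 neutrophil gate markers summed to 215 to 327 UMIs per 10000, against 27.8 to 119 in C1q macrophages, 25.8 to 55.4 in monocytes and 1454 to 1831 in neutrophils, and no marker of the list was at 0. Among the 437 of 914 Arg1 macrophages whose neutrophil score was below 0, S100a9 was at 5.37 UMIs per 10000, against 145 in the whole class. Plin2 had a mean of 8.43 there and Abca1 of 0.550, against 10.3 and 0.503 in the whole class, and all 10 genes passed against monocytes, Apoe with an adjusted p of 0.0366 and Trem2 of 0.0380, where 16.6% of all genes were higher. The 8 genes called in the whole class were among them. In every comparison with these cells, monocytes and C1q macrophages were not filtered by the score. The effect of filtering Arg1 macrophages alone was not tested. No doublet caller was run, so that pairs of cells from the same tumor remain among the cells.

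Between the macrophage classes, Apoe was the gene higher in C1q macrophages (1.84 on the log2 scale, SE 0.163, adjusted p = 8.11e-07, 3.57-fold), where 15.3% of the 7658 genes tested were. Another 7 genes were higher in Arg1 macrophages, as 20% of all genes were: Gpnmb (-2.41, SE 0.240), Fabp4 (-2.25, SE 0.224), Cd36 (-1.80, SE 0.242), Plin2 (-1.58, SE 0.114), Abca1 (-1.15, SE 0.163), Lgals3 (-0.65, SE 0.0943) and Fabp5 (-0.42, SE 0.132, adjusted p = 0.0230). Of these, Fabp5 did not pass by DESeq2 (adjusted p = 0.0701), without the Csf1rfl/fl tumor of run 1 (0.173) or without the tumor term (0.289), and Lgals3 did not pass without the tumor term (0.0540). Trem2 (0.04, SE 0.196, adjusted p = 0.895) and Lpl (-0.23, SE 0.205, adjusted p = 0.412) did not pass. Lpl passed, lower in C1q macrophages, without the Lyve1CreCsf1rfl/fl tumor of run 2 (-0.52, adjusted p = 0.00638) and against the Arg1 macrophages of low neutrophil score (-0.58, adjusted p = 0.0282). Fabp4, Cd36, Lgals3 and Fabp5 overlapped between the classes over tumors, though all but Fabp5 were lower in C1q macrophages in 4 of 4.

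**Figure D2:**
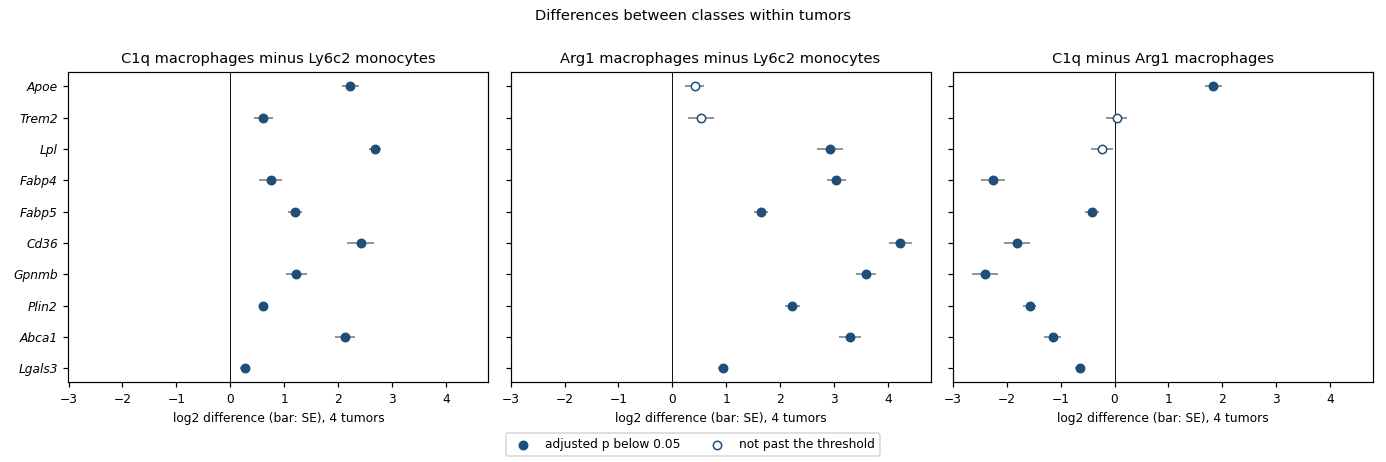
Differences between classes for the 10 genes, as log2 differences (x axes) fitted over 4 tumors, with bars for 1 SE. Filled points passed the threshold of an adjusted p of 0.05 over all genes tested. All 10 points lie above 0 for C1q macrophages minus monocytes, and Apoe alone is a filled point above 0 for C1q minus Arg1 macrophages (1.84).

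Related genes of lipid handling did not all follow. The genes of sterol synthesis were lower than in monocytes for 13 of 15 tested in C1q macrophages (list median -1.40, all genes 0.03 on the log2 scale) and for 13 of 15 in Arg1 macrophages (median -1.09, all genes 0.00). Of all genes, 20.3% and 18% were lower. In C1q macrophages Idi1 was lower by 1.86 (log2 difference -1.86, SE 0.146), Fdps by 1.68 (-1.68, SE 0.120) and Mvd by 1.62 (-1.62, SE 0.193). None of the 15 was higher in either class. Neutrophils also had 13 of 15 lower than monocytes, with a list median of -1.50. Cells are known to shut these genes down when they hold sterol, but sterol was not measured.

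Targets of the oxysterol receptors LXR and other genes of cholesterol efflux went both ways in C1q macrophages, with 6 of 16 higher and 6 lower than in monocytes (all genes 19.4% and 20.3%). Pltp, the phospholipid transfer protein, was higher by 4.18 on the log2 scale (SE 0.204) and Nr1h3, which encodes LXR alpha, by 2.21 (SE 0.120), while the apolipoprotein genes Apoc1 (-3.28, SE 0.375) and Apoc2 (-1.56, SE 0.119), which neighbour Apoe, were lower. Arg1 macrophages had 7 of 16 higher and 3 lower (all genes 21.6% and 18%), with Pltp (1.85, SE 0.325), Mylip (1.64, SE 0.224), Abcg1 (1.56, SE 0.151), a cholesterol exporter, and Npc1 (1.53, SE 0.145) leading. Mylip was at 0.318 UMIs per 10000 in neutrophils and 0.248 in Arg1 macrophages, and Abcg1 at 0.960 and 1.50. Among the Arg1 macrophages of low neutrophil score all 4 passed, at 2.19 for Pltp, 1.26 for Mylip, 1.40 for Abcg1 and 1.22 for Npc1. Nr1h3 (1.60, SE 0.156) and Pltp (2.38, SE 0.200) were higher in C1q than in Arg1 macrophages, and Soat1, which esterifies cholesterol (-1.36, SE 0.108), and Npc1 (-1.04, SE 0.126) lower.

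Among genes of fatty acid uptake, storage and oxidation, 6 of 23 were higher and 6 lower in C1q macrophages than in monocytes, shares not far from those of all genes (19.4% and 20.3%), and 9 of 21 were higher and 2 lower in Arg1 macrophages (all genes 21.6% and 18%). Hilpda, which inhibits lipolysis at the droplet and is induced by hypoxia, was higher by 4.51 (SE 0.161) in Arg1 macrophages than in monocytes, and lower in C1q than in Arg1 macrophages (-3.94, SE 0.139). The fatty acid transporter gene Slc27a1 was higher too (2.64, SE 0.304). Dgat1, which makes triglyceride, and the transporter gene Slc27a4 passed in the whole class (1.76, SE 0.230, and 1.71, SE 0.331) but not among the Arg1 macrophages of low neutrophil score (0.37, adjusted p = 0.366, and 0.94, adjusted p = 0.0724). Dgat1 was at 3.67 UMIs per 10000 in neutrophils, 0.690 in Arg1 macrophages and 0.210 in monocytes. Hilpda and Slc27a1 passed among the cells of low neutrophil score as well (3.33 and 2.91). The Arg1 gate itself holds Hmox1, Vegfa and Slc2a1. The part of this selection in the levels of Hilpda and Plin2 was not tested. Pparg, the nuclear receptor that drives Fabp4 and Cd36 in adipocytes and macrophages, was higher in C1q macrophages than in monocytes (3.42, SE 0.189) and than in Arg1 macrophages (2.06, SE 0.248), while Fabp4 and Cd36 were lower in C1q than in Arg1 macrophages.

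Of the genes of TREM2 signalling and of lipid-associated or disease-associated phagocytes, 16 of 22 were higher and 4 lower in C1q macrophages than in monocytes (list median 0.59, all genes 0.03; 19.4% of all genes higher and 20.3% lower), and 13 of 22 higher and 3 lower in Arg1 macrophages (median 0.80, all genes 0.00; 21.6% and 18%). The lysosomal genes Cd63 (3.25, SE 0.139), Ctsd (1.42, SE 0.0686) and Ctsb (1.25, SE 0.0713) stood out in C1q macrophages, without overlap with monocytes. The proton pump subunit gene Atp6v0d2 (1.93, SE 0.495) passed at low levels, 0.0674 against 0.0184 UMIs per 10000, and was higher in 3 of 4 tumors. Atp6v0d2 (4.65, SE 0.447), Cd9 (3.36, SE 0.177), Cd63 (3.22, SE 0.162) and Csf1 (3.21, SE 0.226) did in Arg1 macrophages. Neutrophils had more Cd9 and Csf1 than Arg1 macrophages (8.79 and 3.42 UMIs per 10000 against 6.81 and 2.36), and among the Arg1 macrophages of low neutrophil score the differences were 3.87 for Atp6v0d2, 2.80 for Cd63, 2.48 for Cd9 and 1.57 for Csf1, all past the threshold.

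In neutrophils, Plin2 and Abca1 stood well above monocytes, and Trem2 and Lgals3 below them. On the scaled log2 values, Abca1 was higher than in monocytes by 3.65 (SE 0.166, adjusted p = 3.06e-11), Plin2 by 1.93 (SE 0.134) and Gpnmb by 0.67 (SE 0.208, adjusted p = 0.0103), 3 of 9 genes tested where 33.4% of all genes were higher. Trem2 (-2.68, SE 0.262), Lgals3 (-0.90, SE 0.105), Apoe (-0.51, SE 0.130) and Fabp5 (-0.25, SE 0.106, adjusted p = 0.0451) were lower, where 33.7% of all genes were. Neutrophil markers alone took 1454 to 1831 of every 10000 UMIs in this class, and the levels, unlike the fit, are not rescaled between classes. On the level scale Gpnmb was at 0.0947 in neutrophils and 0.109 in monocytes and higher in 1 of 4 tumors. Gpnmb did not pass under the stricter gate, with the hashtag filter, or without either run 1 tumor, Apoe did not pass without the Lyve1CreCsf1rfl/fl tumor of run 1 or without the tumor term, and Fabp5 was at 0.04 under the stricter gate (adjusted p = 0.728). Fabp5 also missed the threshold by DESeq2, with its size factors, with the hashtag filter, without the tumor term, and when either Lyve1CreCsf1rfl/fl tumor or the Csf1rfl/fl tumor of run 2 was left out. Lpl (-0.31, adjusted p = 0.194) passed without the Lyve1CreCsf1rfl/fl tumor of run 2 (-0.53, adjusted p = 0.0390) and Fabp4 (-0.42, adjusted p = 0.174) without the Csf1rfl/fl tumor of run 2 (-0.69, adjusted p = 0.0271). Cd36, which did not pass the filter on low counts with all tumors, was tested and higher in neutrophils when either Lyve1CreCsf1rfl/fl tumor or the Csf1rfl/fl tumor of run 1 was left out (1.05 to 1.22 on the log2 scale). With neutrophils went Hilpda (4.09, SE 0.131), Dgat1 (4.96, SE 0.167), Mgll (7.27, SE 0.542) and Slc27a4 (3.82, SE 0.164) of the fatty acid list, of which 9 of 23 were higher and 6 lower, while 13 of 15 sterol synthesis genes were lower.

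Among dendritic cells, mature cells were compared with Cd209a dendritic cells. Fabp5 was higher by 1.83 (SE 0.132, adjusted p = 5.86e-09) in 4 of 4 tumors and Fabp4 by 2.52 (SE 0.430, adjusted p = 1.01e-04) in 3 of 4, of 6 genes tested and where 29.3% of all genes were higher. Lgals3 was lower (-1.08, SE 0.0859), where 29% of all genes were. Fabp4 rests on 253 UMIs in 73 of 1875 mature dendritic cells and 23 UMIs in 10 Cd209a dendritic cells, and Trem2, Cd36, Gpnmb and Abca1 did not pass the filter on low counts. Lpl (-0.76, adjusted p = 0.149) passed, lower in mature cells, without the Lyve1CreCsf1rfl/fl tumor of run 1 (-1.18, adjusted p = 0.0170). Sterol synthesis genes were lower in mature cells for 12 of 16 and higher for 1.

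To compare how many cells had each gene at equal depth, each cell was thinned to 1500 UMIs, which left out 99 C1q macrophages, 202 Arg1 macrophages, 50 monocytes, 976 of 4630 neutrophils and 350 T cells. Free RNA gives UMIs to cells that do not express a gene, and T cells served as the class for comparison. Whether a T cell share was free RNA or RNA of the T cells themselves was not tested. Apoe was found in 23.4% of C1q macrophages (95% exact interval 21.5 to 25.5) and 1.15% of T cells, Lpl in 16.9% and 0.658%, and Trem2 in 4.28% (3.40 to 5.33) and 0.207%. Without thinning, the shares of C1q macrophages with Apoe, Lpl and Trem2 were 38.4%, 35.9% and 14.8%. Plin2 was found in 68.1% of thinned Arg1 macrophages, 44.4% of neutrophils, 43.4% of C1q macrophages and 5.45% of T cells, and Gpnmb in 11.2% of Arg1 macrophages and 0.207% of T cells. Fabp5 in 85.4% of mature dendritic cells stood against 13.2% of T cells, and Lgals3 in 89.2% of monocytes against 16.7% of T cells, so that these genes had the highest T cell shares of the 10. These intervals cover counting error only.

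**Figure D3:**
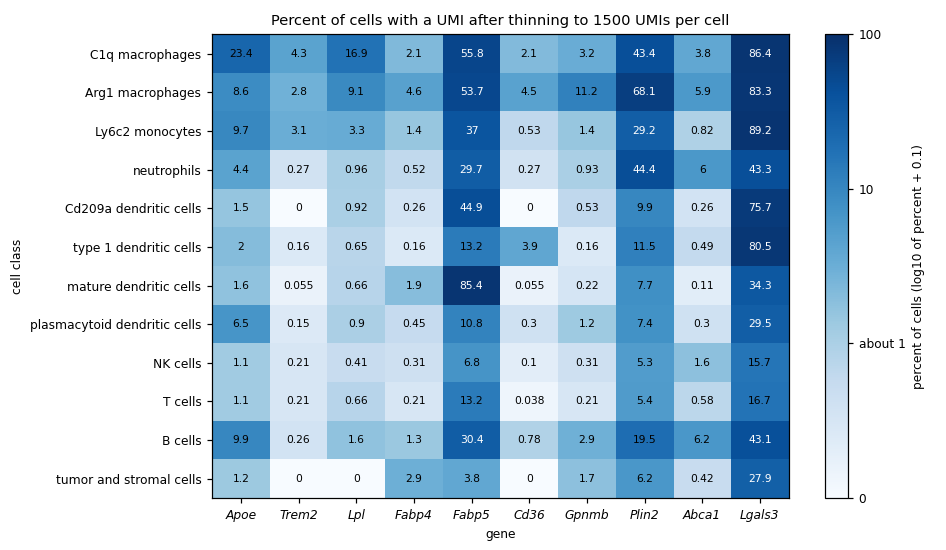
Percent of cells with at least 1 UMI of each of the 10 genes (columns) in 12 cell classes (rows), after thinning every cell to 1500 UMIs, with color on a log10 scale of percent + 0.1. Trem2 stays at or under 4.28% in every class, while Lgals3 reaches 89.2% in monocytes.

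Per cell, more of the 10 genes were found in macrophages than in other classes. The number per cell rises with the share of cells that have each gene, and joint presence beyond that was not tested. A thinned C1q macrophage had a mean of 2.40 ± 0.122 of the 10 genes (SD of 4 tumors) and an Arg1 macrophage 2.50 ± 0.247, against 1.75 ± 0.156 in monocytes, 1.28 ± 0.204 in neutrophils and 0.373 ± 0.0871 in T cells. The 4 tumors of each macrophage class lay above all 4 monocyte values. At least 4 of the 10 genes were present in 16.7% of C1q and 17.5% of Arg1 macrophages (means of 4 tumors), against 2.58% of monocytes and 0.132% of T cells.

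**Figure D4:**
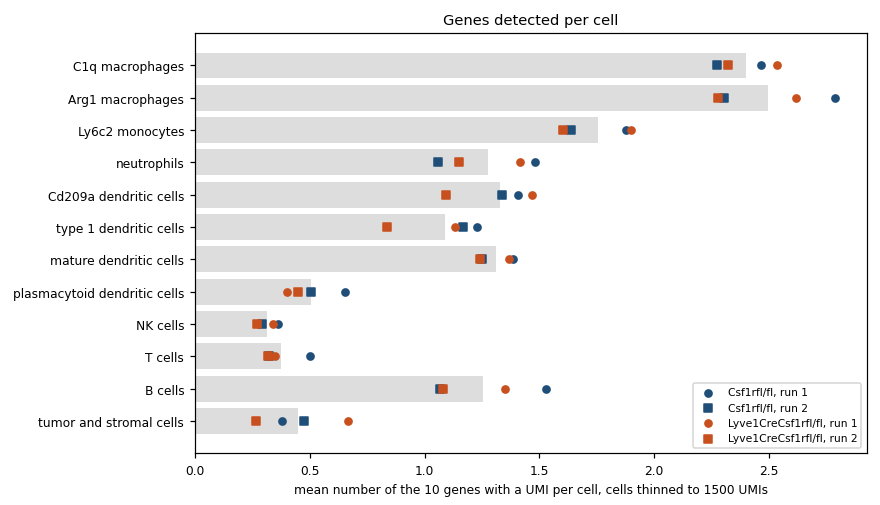
Mean number of the 10 genes with a UMI per cell (x axis) in 12 cell classes, with cells thinned to 1500 UMIs. Bars are means of the 4 tumors, which are the points. C1q and Arg1 macrophages (2.40 and 2.50) lie above monocytes (1.75) in every tumor.

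Within C1q macrophages, some of the genes were found together in the same cell more often than others. Of the 77 thinned cells with a Trem2 UMI, 49.4% had Apoe and 33.8% had Lpl, against 22.3% and 16.2% of the 1720 cells without Trem2. Of the 58 cells with Gpnmb, 81.0% had Fabp5, against 54.9% of cells without it, whereas Apoe was at 24.1% and 23.4%. The 38 cells with Fabp4 had Plin2 in 76.3%, against 42.6%, and the 37 with Cd36 had Lpl in 48.6%, against 16.25%. Lpl was in 13.8% of the cells with Gpnmb and 17.0% of those without. These shares pool the tumors, whose levels differ together. Taken tumor by tumor, the share was higher in cells with the first gene in 4 of 4 tumors for Trem2 with Apoe, Gpnmb with Fabp5 and Fabp4 with Plin2, in 3 of 4 for Trem2 with Lpl and Cd36 with Lpl, and in 2 of 4 for Gpnmb with Apoe or Lpl. Of the 77 cells with Trem2, 6 and 4 came from the Lyve1CreCsf1rfl/fl tumors, and 2 and 2 of the 37 with Cd36, so that single tumors rest on few cells. No test was made.

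Across 40 sums (10 classes in 4 tumors, which share library, depth and run within a tumor), the likeness of patterns was described by Pearson's r over log2(CPM + 1). Among the 10 genes the highest r was that of Gpnmb with Plin2 (0.865), followed by Apoe with Trem2 (0.858), Trem2 with Lpl (0.849), Plin2 with Abca1 (0.818) and Gpnmb with Abca1 (0.814), pairs that share the class of their highest mean. Other pairs that share it had a low r, such as Fabp4 with Cd36 (0.305), and pairs that do not share it a high one, such as Lpl with Gpnmb (0.806), and the lowest was that of Fabp5 with Cd36 (0.0686). The genes most like Apoe were Blvrb (0.892), Lrp1 (0.870) and Apobec1 (0.869), and those most like Trem2 were Msr1 (0.940), a scavenger receptor, and Lrp1 (0.929). Lpl was most like Plau (0.906) and C3ar1 (0.900). Gpnmb was most like Hmox1 (0.922), a gate gene of Arg1 macrophages, F7 (0.904) and Wwc1 (0.884), and Plin2 like Ninj1 (0.961), Hmox1 (0.947) and Card19 (0.943). Abca1 followed Por (0.922), Slc40a1 (0.909) and Flcn (0.893), Lgals3 followed Rnh1 (0.942), Pid1 (0.913) and Guca1a (0.913), and Fabp5 followed Car13 (0.885), Flrt3 (0.874) and Sh3glb1 (0.866). Fabp4 (Ccdc71l 0.866, Plgrkt 0.851, F7 0.833) and Cd36 (Dtx4 0.824, Fgd6 0.810, Fam102b 0.793) had the weakest best matches.

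The comparison of genotypes asks whether tumors of mice whose Lyve1-expressing cells lost Csf1r differ in these genes. Csf1r itself was at 1.58 and 2.19 UMIs per 10000 in C1q macrophages of Csf1rfl/fl tumors and at 1.34 and 1.23 in those of Lyve1CreCsf1rfl/fl tumors, and at 2.04 and 2.27 against 1.44 and 1.40 in monocytes. Counts from the 3′ end of a gene need not cover a floxed exon, so these values do not check the deletion. C1q macrophages made up 11.7% and 6.27% of the kept cells of Csf1rfl/fl tumors and 3.35% and 3.16% of those of Lyve1CreCsf1rfl/fl tumors.

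In fits without a term for the run, none of the 10 genes passed the adjusted threshold between genotypes in any of 6 classes by edgeR. Neither did any other gene (0% of 6935 to 10104 genes tested), and DESeq2 called 0 of the 10 genes and 0 to 3 genes in all. At an unadjusted p under 0.05 there were 3 of 10 in C1q macrophages (Lpl, Cd36, Gpnmb; 3.7% of all genes tested), 2 of 10 in Arg1 macrophages (Trem2, Lpl; 5.94%), 1 of 5 in Cd209a dendritic cells (Lpl; 1.17%) and 1 of 6 in mature dendritic cells (Fabp4; 1.58%). There were none among 10 in monocytes (1.28%) and 8 in neutrophils (0.852%).

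In C1q macrophages the genes did not move as a block. Gpnmb was at 0.362 and 0.513 in Lyve1CreCsf1rfl/fl tumors and 0.221 and 0.165 in Csf1rfl/fl tumors, without overlap (log2 difference 1.16, SE 0.299, adjusted p = 0.672). Lpl was at 1.15 and 2.02 against 1.91 and 3.43, lower within each run by a similar amount though the genotypes overlapped (-0.72, SE 0.310, adjusted p = 0.999). Fabp5 was at 30.6 and 20.4 against 18.5 and 14. With the run as a block, these 3 genes passed: Gpnmb (1.16, adjusted p = 0.0182) and Fabp5 (0.66, adjusted p = 0.0382) were higher in Lyve1CreCsf1rfl/fl tumors and Lpl (-0.72, adjusted p = 0.0136) lower, among 58 of 9449 genes (0.614%). This fit has 1 degree of freedom among samples. Apoe, Trem2 and Cd36 were lower in both Lyve1CreCsf1rfl/fl tumors than in both Csf1rfl/fl tumors, and did not pass in either of these fits. The genotypes did not overlap for 5 of the 10 genes, as for 27.1% of all genes tested, and Plin2 was at 4.27 and 3.82 against 4.58 and 3.82.

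Other measures of C1q macrophages moved with the genotype too. The 9 cell cycle genes summed to 5.16 and 5.11 UMIs per 10000 in Csf1rfl/fl tumors and 1.69 and 1.63 in Lyve1CreCsf1rfl/fl tumors, and the median depth was 6561 and 5737 against 4153 and 5108 UMIs per cell. Folr2, a gate gene of this class, was at 0.210 and 0.364 in Csf1rfl/fl tumors and 0.0775 and 0.0781 in Lyve1CreCsf1rfl/fl tumors. Neutrophil markers differed most between the runs, at 119 and 96.9 in run 1 and 49.0 and 27.8 in run 2. Within each run the Lyve1CreCsf1rfl/fl tumor was the lower one. The part of these differences in the values of the 10 genes was not tested.

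In Arg1 macrophages Lpl was at 1.55 and 0.725 in Lyve1CreCsf1rfl/fl tumors against 2.67 and 3.28 in Csf1rfl/fl tumors (-1.24, SE 0.341, adjusted p = 0.520), and Trem2 at 0.214 and 0.136 against 0.489 and 0.373 (-1.14, SE 0.398, adjusted p = 0.715), neither with overlap. Plin2, at 11.4 and 11.2 against 9.84 and 8.81, did not overlap either and was higher in Lyve1CreCsf1rfl/fl tumors, so that 3 of the 10 genes did not overlap, as 35.6% of all genes tested did not. In the Csf1rfl/fl tumor of run 2, 1 cell held 144 of the 370 Lpl UMIs. Without the highest cell of each tumor, Lpl was at 1.10 and 0.560 against 1.94 and 2.04. Other measures of the class moved with the genotype. The 8 neutrophil markers summed to 300.4 and 327 UMIs per 10000 in Lyve1CreCsf1rfl/fl tumors and 221 and 215 in Csf1rfl/fl tumors, and the gate gene Arg1 was at 1.84 and 2.38 against 6.08 and 6.74. Among the Arg1 macrophages of low neutrophil score, Plin2 overlapped between genotypes (9.11 and 7.86 against 8.36 and 8.41), while Lpl (1.88 and 1.32 against 3.86 and 4.45) and Trem2 (0.325 and 0.170 against 0.588 and 0.353) did not. The part of the Arg1 gene's difference was not tested. Lpl and Trem2 did not pass with the run as a block, and Lpl passed without the Lyve1CreCsf1rfl/fl tumor of run 1. Mature dendritic cells had Fabp4 at 0.397 and 0.270 against 0.126 and 0.113 (1.56, SE 0.316, unadjusted p = 3.57e-04 by edgeR, adjusted p = 1), which passed with the run as a block (1.51, adjusted p = 0.00493), as did Fabp5 (0.33, adjusted p = 0.0105), among 17 of 9283 genes (0.183%). In the Lyve1CreCsf1rfl/fl tumor of run 2, 1 mature dendritic cell held 20 of the 48 Fabp4 UMIs. Without the highest cell of each tumor, Fabp4 was at 0.343 and 0.158 against 0.105 and 0.0917. In monocytes no gene of the 10 differed by more than 0.45 on the log2 scale in either direction, with standard errors of 0.27 to 0.58.

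**Figure D5:**
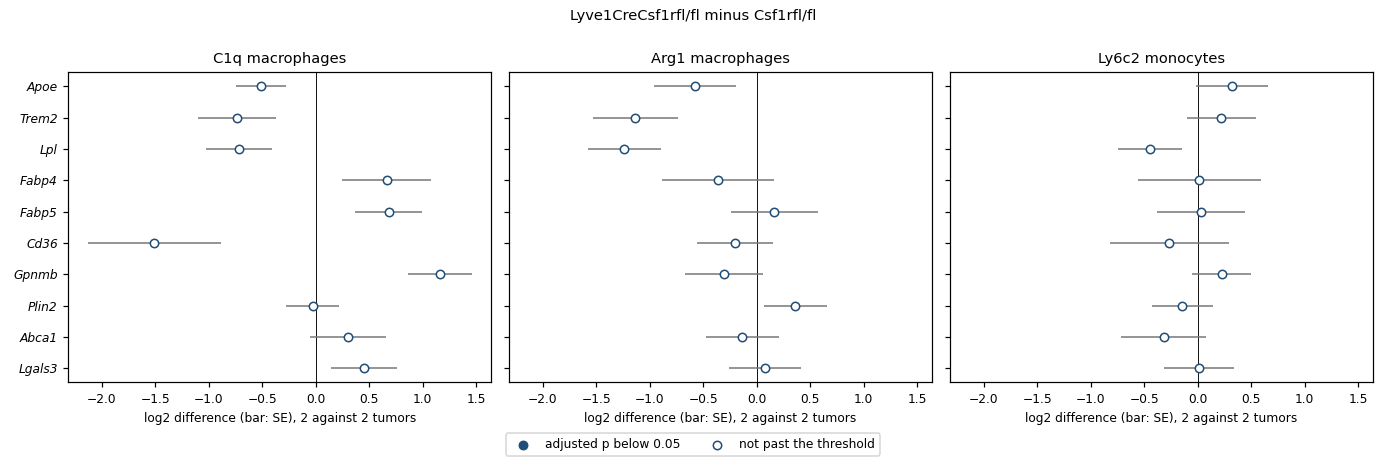
Genotype differences of the 10 genes in C1q macrophages, Arg1 macrophages and Ly6c2 monocytes, as the log2 difference of Lyve1CreCsf1rfl/fl minus Csf1rfl/fl tumors (x axes, 2 against 2 tumors, no block), with bars for 1 SE. No point passed the threshold over all genes tested, and the points reach from -1.51 (Cd36) to 1.16 (Gpnmb) in C1q macrophages.

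Whether the genotype differed more in C1q macrophages than in monocytes was tested as an interaction with a term for the tumor. None of the 10 genes passed, and 5 of 10438 genes did (0.0479%). The lowest adjusted p of the 10 was that of Lgals3 (0.46, SE 0.107, adjusted p = 0.214), followed by Fabp5 (0.66, SE 0.164, 0.232) and Apoe (-0.80, SE 0.229, 0.301), and 6 of the 10 had an unadjusted p under 0.05, where 8.47% of all genes tested had. Between genotypes in C1q macrophages, the list medians were 0.26 for efflux and LXR targets, 0.14 for fatty acid genes, 0.13 for sterol synthesis and 0.04 for TREM2 and phagocyte genes, against 0.01 for all genes, on the log2 scale and with no gene of them past the threshold.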

How the data were processed

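CD45+ cells of 4 EO771 tumors, 2 of each genotype, were measured. The authors aligned reads to mm10 with Cell Ranger 6.0.1 and deposited UMI counts per gene and cell and counts of the hashtag antibodies, neither normalized. For the singlets under their mitochondrial cutoff and outside clusters specific to 1 tumor, the authors deposited SCTransform-corrected values, treated here as scores. No score entered a result: the table served as the list of cells. A cell belongs to the tumor of its run's higher hashtag. Doublets with both hashtags had been removed by the authors.

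Cells were gated by the mean z-score of marker lists, with at least 2 markers detected and a margin of 0.3 over the next class (0.8 for the stricter gate). The 10 genes, the markers and the lists were chosen with earlier results of these data known. Named beside them are up to 4 genes per list and comparison with the largest change past the threshold, and the 3 genes most like each, except that some genes these rules pick are not reported here. UMIs were summed per class and tumor, filtered with filterByExpr, scaled with TMM and tested with edgeR 4.0.16 in R 4.3.3, with an adjusted p of 0.05 as threshold. DESeq2 1.42.0 was an alternative, and scripts were tested on simulated data. Counts in Arg1 macrophages with a neutrophil score below 0, pairs of genes by tumor and levels without the highest cell were added after seeing the data. No source gives replicates beyond these tumors. Without a block, p-values between genotypes measure the spread between tumors. With the tumor term, p-values of class comparisons and of the interaction measure how class differences vary between tumors. The labels pair tumors by run: deviations from the genotype mean correlated within a run with r = 0.169 to 0.341 in the 6 classes. With 2 tumors per genotype, both runs of a class give the same r and are not separate values. NumPy 2.4.6, SciPy 1.17.1, pandas 2.3.3 and GENCODE M21 were used.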

Additional observations from a re-analysis of the deposited data

How the results depend on the processing

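Counts of the 10 genes past the threshold kept to within 1.5 times in all class comparisons. Leaving out each tumor in turn gave 8 to 9 genes for C1q macrophages against monocytes (10 with all tumors), 8 to 10 for Arg1 macrophages against monocytes (8), 7 to 9 between the macrophage classes (8), 3 to 4 between the dendritic classes (3) and 5 to 8 for neutrophils against monocytes (7). With no replicate block they were 7, 8, 6, 3 and 5. Between genotypes, where 0 passed, the filter of 1 UMI alone gave 1 gene in C1q macrophages (Cd36), 1 in mature dendritic cells (Fabp4) and 3 in the interaction (Apoe, Fabp5, Lgals3). Those fits called 59 of 16604, 15 of 16098 and 107 of 17870 genes tested. The run as a replicate block gave 3 in C1q macrophages and 2 in mature dendritic cells, and changed no other call of the 10 genes. Leaving out 1 tumor gave 0 to 1 gene in Arg1 macrophages (Lpl, without the Lyve1CreCsf1rfl/fl tumor of run 1), monocytes (Fabp4, without the Csf1rfl/fl tumor of run 1), Cd209a dendritic cells (Lpl, without the Lyve1CreCsf1rfl/fl tumor of run 2), mature dendritic cells (Fabp4, without the Lyve1CreCsf1rfl/fl tumor of run 2) and the interaction (Fabp5, without the Csf1rfl/fl tumor of run 2 or the Lyve1CreCsf1rfl/fl tumor of run 1). A lone tumor was assumed to vary like the others. Over all genes, the 0 calls between genotypes became as many as 59, 40, 28, 24, 25 and 19 in C1q macrophages, Arg1 macrophages, monocytes, Cd209a dendritic, mature dendritic cells and neutrophils, and the 5 of the interaction 1 to 107. For C1q macrophages against monocytes, 3867 genes became 2511 by DESeq2 and 2369 with no replicate block, and between the macrophage classes 2701 became 1509 in Arg1 macrophages of low neutrophil score. Single genes of the 10 were followed under alternatives for 53 differences only. These had an unadjusted p below the level of the threshold, or passed with the run as a replicate block. Differences that met neither condition were left out of the count, so that it does not describe them. Of the 543 values of the followed differences, 492 kept direction and side of the threshold, 29 lost the call, 21 gained one and 1 turned. The value that turned was that of Fabp5 in neutrophils against monocytes, 0.044 under the stricter gate. Levels stayed within 1 SD in 104 of 120 cases under the stricter gate and in 106 of 120 with cells weighted equally. The cause of these changes was not tested. Low counts limit the sparse genes, and 2 tumors per genotype limit every comparison of genotypes.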
